A study of Mus musculus with 8 samples.

Results

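The expression of 8 receptor and adaptor genes best known from natural killer (NK) cells was described in single CD8+ T cells from a mouse pancreatic tumour. The genes were Klrc1, Klrc2, Klrd1, Klrk1, Klre1, Klrg1, Fcer1g and Tyrobp, out of 32285 genes counted. The cells were CD90.1+ OT-I T cells, whose receptor recognises ovalbumin. They came from Cas9 knock-in mice and carried a lentiviral CRISPR library of guide RNAs, most against metabolic genes and the rest nontargeting (sgNT). They were injected into Rosa26-Cas9 mice with orthotopic KPC_OVA tumours, a pancreatic ductal adenocarcinoma line that expresses ovalbumin, and were sorted from the primary tumour 7 days later. Treatment with anti-PD-1 or control IgG was started on the day of transfer. There were 3 anti-PD-1 libraries and 1 IgG library, and the library transduction and the ovalbumin tumour were common to all of them. The labels do not give how many mice were pooled in a library, nor whether anti-PD-1 replicates 1 and 2 were separate samples, so n counts libraries and a p-value measures only the spread between these libraries.

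The cells were those with exactly 1 called guide and without a UMI, or unique molecular identifier, of the myeloid genes Lyz2, C1qa and C1qb. Of 56359 cell barcodes, 23805 had 1 guide, 23059 of these passed the limits on UMIs and on mitochondrial share, and 22825 were kept. Values of the anti-PD-1 libraries are given in the order of replicates 1, 2 and 3. The kept cells numbered 2509, 2571 and 6339 with anti-PD-1 and 11406 with IgG. The myeloid rule removed 234 cells, from 0.774% of cells in IgG to 1.45% in replicate 3. The median UMI count per kept cell was 16829, 16300 and 12038 with anti-PD-1 and 6324 with IgG, so shares of cells with a UMI were compared after thinning every cell to 3000 UMIs, which left out 644 shallower cells, 608 of them in IgG. Kept barcodes shared by a pair of libraries numbered 3 to 17. The 8 genes of the CD8 T cell list (Cd3e, Cd3d, Cd3g, Trac, Trbc2, Cd8a, Cd8b1 and Thy1) summed to between 8561 and 9361 counts per 1000000 UMIs (CPM) in the 4 libraries, and every kept cell had a UMI of the list.

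The C-type lectin-like receptors of the natural killer complex sit on NK cells and on activated CD8+ T cells, where they raise or lower the threshold for killing. Klrd1 encodes CD94, which pairs with the product of Klrc1, the inhibitory NKG2A, or of Klrc2, the activating NKG2C, and both pairs bind the nonclassical MHC molecule Qa-1, which H2-T23 encodes. Klrk1 encodes NKG2D, a receptor for stress ligands that costimulates T cells through the adaptor DAP10, the product of Hcst. Klre1 encodes a lectin-like receptor that pairs with the products of Klri1 or Klri2. Klrg1 encodes an inhibitory receptor for cadherins and is a marker of short-lived effector T cells. Fcer1g encodes the Fc receptor gamma chain and Tyrobp encodes DAP12, which are the adaptors with immunoreceptor tyrosine-based activation motifs that couple many NK and myeloid receptors to the kinases Syk and Zap70.

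On GRCm38, Klre1 lies at chr6:129577905-129585827 (+), Klrd1 at chr6:129591782-129598775 (+), Klrk1 at chr6:129610323-129623864 (-), Klrc2 at chr6:129647496-129660689 (-) and Klrc1 at chr6:129666015-129678973 (-). These 5 genes fall within 101 kb. Klrg1 lies apart on the same chromosome at chr6:122270596-122282882 (-), Fcer1g at chr1:171229572-171234365 (-) and Tyrobp at chr7:30413760-30417585 (+), and no other annotated gene overlaps any of the 8. Klrc1 and Klrc2 are close copies. In the last 500 bases of Klrc1, where a 3′ assay reads, 50.8% of the 60-base words also occur in Klrc2, whereas 0% of those in the last 500 bases of Klrc2 occur in Klrc1. Reads from that part of Klrc1 can therefore be counted in either gene or dropped, and the Klrc1 level is uncertain by itself.

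RefSeq promoter windows, from 250 bases before to 50 after a start, were found for 5 of the 8 genes. They were searched on both strands for the letters of 4 motifs that T and NK cell factors bind. The RUNX letters TGTGGT (or ACCACA) occurred before a RefSeq start of Klrc1, Klrc2, Klrk1 and Klre1, and in 14.0% of 32851 promoters. RefSeq starts can differ from the GENCODE gene bounds given above, and the stretches of Klrc2 and Klre1 printed here lie inside those bounds. The ETS letters CAGGAA occurred in the windows of Fcer1g and of Klrk1, and in 25.7% of promoters. A second annotated start of Klre1 had no RUNX match but had a match to the T-box letters TCACAC, which occurred in 12.3% of promoters. No other window had a T-box match. The AP-1 letters, found in 6.75% of promoters, occurred in none of these windows. The 60 bases around 1 match in each gene are shown to place these letters beside the starts of the genes compared below, with the match in capitals, in GRCm38.p6 coordinates and on the strand of the gene. A match of letters is not a binding site.
Klrc1, chr6:129679028-129679087 (-): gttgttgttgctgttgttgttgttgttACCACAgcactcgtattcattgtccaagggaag
Klrc2, chr6:129660600-129660659 (-): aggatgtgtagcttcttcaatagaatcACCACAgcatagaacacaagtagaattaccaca
Klrk1, chr6:129623961-129624020 (-): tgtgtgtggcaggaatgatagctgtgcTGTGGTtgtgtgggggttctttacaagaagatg
Klre1, chr6:129577963-129578022 (+): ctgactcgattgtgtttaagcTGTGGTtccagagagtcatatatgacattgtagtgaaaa
Fcer1g, chr1:171234362-171234421 (-): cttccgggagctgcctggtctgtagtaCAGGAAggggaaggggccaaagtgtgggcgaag

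All 8 genes were detected in all 4 libraries, in shares of thinned cells that ran from 85.2% at most for Klrd1 to 1.78% and 0.968% at most for Klrg1 and Tyrobp. Anti-PD-1 replicates 1 and 2 lay apart from replicate 3 and IgG for Klre1, Fcer1g and Tyrobp. None of the 8 genes was called between anti-PD-1 and IgG in the fit of summed counts.

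Klrd1 was summed to 736, 711 and 1132 CPM with anti-PD-1 and to 955 CPM in IgG. Replicates 1 and 2 were the lower libraries, and IgG fell inside the anti-PD-1 range. After thinning, 69.5%, 67.7% and 85.2% of the anti-PD-1 cells and 84.2% of the IgG cells had a Klrd1 UMI, whereas without thinning the shares were 91.2%, 90.4%, 96.3% and 92.4%.
Klrc1 was nearly level, at 109, 109 and 126 CPM with anti-PD-1 and 108 CPM with IgG, and 25.7%, 24.8% and 30.3% against 26.8% of thinned cells had a UMI. Klrc2 went the other way between the libraries, at 121, 115 and 71.6 CPM with anti-PD-1 and 79.7 CPM with IgG, so that replicates 1 and 2 were the high ones. Klrk1 varied least, at 218, 212 and 201 CPM with anti-PD-1 and 224 CPM with IgG, and was detected in 39.3%, 40.3% and 39.9% against 44.7% of thinned cells. For Klrk1 the IgG library thus lay above all 3 anti-PD-1 libraries, in CPM as in thinned shares. With 1 IgG library this difference has no replicate check. Klrc1 in IgG lay just under the lowest anti-PD-1 level in CPM but inside their range of thinned shares.

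Klre1 was summed to 42.6, 44.9 and 98.5 CPM with anti-PD-1 and 97.9 CPM with IgG. Replicate 3 and IgG were thus about level, and both were above replicates 1 and 2. The thinned shares followed, at 9.01%, 10.3% and 21.7% against 22.6%. Klrg1 was rare, at 3.46, 4.29 and 6.11 CPM with anti-PD-1 and 4.76 CPM with IgG, and only 1.12%, 1.5% and 1.78% against 1.44% of thinned cells had a UMI.

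The adaptors differed most between libraries. Fcer1g was summed to 7.27, 6.24 and 55.5 CPM with anti-PD-1 and 41.6 CPM with IgG. Its thinned share was 0.877% (exact Clopper-Pearson 95% interval 0.55 to 1.33) in replicate 1, 0.856% (0.537 to 1.29) in replicate 2, 7.16% (6.53 to 7.82) in replicate 3 and 5.76% (5.33 to 6.22) in IgG, and these intervals cover counting error only. Tyrobp was summed to 1.20, 1.39 and 4.48 CPM with anti-PD-1 and 3.85 CPM with IgG. In replicate 1 a single cell held 34 of the 58 Tyrobp UMIs, and in replicate 2 the top cell held 27.3% of them, so that its level in those libraries rests on few cells. For both adaptors, replicates 1 and 2 were low and replicate 3 and IgG were high, with no overlap. The plot of levels by library shows all 8 genes.

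**Figure D1:**
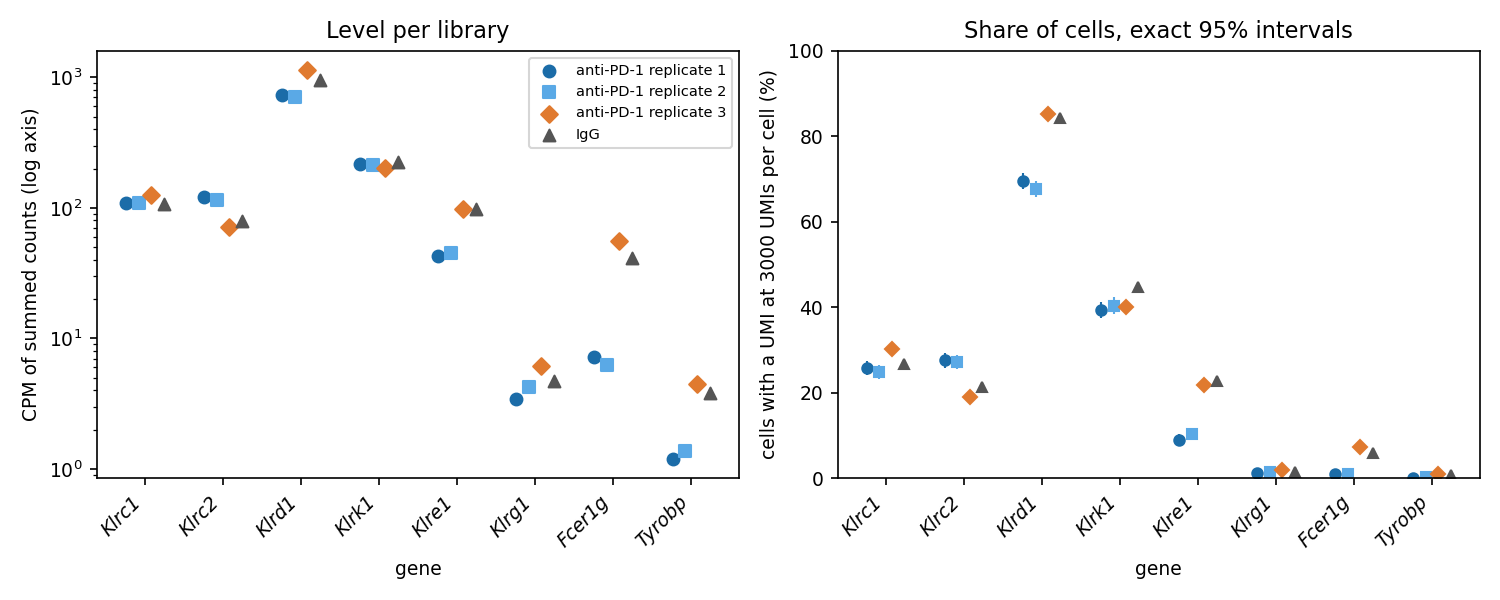
Left, summed level (CPM, log axis) of the 8 genes in the kept cells of each library, 3 anti-PD-1 and 1 IgG, with 1 point per library; right, the share of cells (%) with a UMI at 3000 UMIs per cell, with exact 95% intervals as bars. Klrc1 and Klrk1 stay within a narrow band, while Fcer1g runs from 6.24 to 55.5 CPM. In CPM, IgG falls between the anti-PD-1 libraries for all but Klrc1 and Klrk1. In shares of cells, IgG lies above all 3 anti-PD-1 libraries for Klrk1 and Klre1 and between them for the other genes.

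The split between libraries was common in the data. Of 15317 genes with at least 10 UMIs, 63.7% did not overlap between replicates 1 and 2 on one side and replicate 3 and IgG on the other, and 10.5% did so with means at least 2-fold apart. Of the 8 genes, 6 did not overlap, all but Klrc1 and Klrk1, and 3 were also at least 2-fold apart. The mean of replicate 3 and IgG was 7.19 times that of replicates 1 and 2 for Fcer1g, 3.22 times for Tyrobp and 2.24 times for Klre1, against 0.643 times for Klrc2. The study's methods speak of 2 batches, but neither they nor the labels say which libraries formed each, so that a batch and a difference between the tumours cannot be told apart. In sums over cells, fewer cells of a type and less RNA per cell cannot be told apart either.

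To ask whether checkpoint blockade moved these genes, the summed counts of the 3 anti-PD-1 libraries were compared with those of the IgG library. None of the 8 genes was called, beside 0 of 13758 genes in all (0.0%), with 279 genes at an unadjusted p under 0.05 in edgeR and 5 genes, none of the 8, called by DESeq2. Klre1 had the largest change relative to its error, with a mean of 62.0 ± 31.6 CPM (SD, n = 3) in the anti-PD-1 libraries and 97.9 CPM under IgG, or -0.65 ± 0.48 (SE) on the log2 scale with an adjusted p of 0.986. Fcer1g had a mean of 23 ± 28.2 CPM (SD, n = 3) in the anti-PD-1 libraries and 41.6 CPM under IgG, or -0.84 ± 1.20 (adjusted p = 0.986), so that a change of several fold in either direction would not have been seen. Klrc1 had 115 ± 9.70 CPM (SD, n = 3) and 108 CPM, or 0.10 ± 0.14 (adjusted p = 0.986). Klrc2 had 102 ± 26.8 CPM (SD, n = 3) and 79.7 CPM, or 0.38 ± 0.32 (adjusted p = 0.986).

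Replicate 3 decided these values. On its own it was above IgG by a log2 ratio of 0.42 for Fcer1g and 0.22 for Tyrobp and within 0.01 for Klre1. Without replicate 3, 5 of the 8 genes were called, against 25.0% of all 13312 genes: Klrc2 was higher with anti-PD-1 (log2 fold change 0.58 ± 0.11) and Fcer1g (-2.60 ± 0.10), Tyrobp (-1.55 ± 0.21), Klre1 (-1.14 ± 0.10) and Klrd1 (-0.38 ± 0.13) were lower. The spread in the fit without replicate 3 came only from replicates 1 and 2, which may not be separate samples. A fit with the split between libraries as a term compares replicate 3 with IgG alone, with an error taken only from replicates 1 and 2. In it Fcer1g was the 1 gene of the 8 called, against 1.99% of all 13758 genes, at the ratio of these 2 libraries given above, so that it adds no support of its own.

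The cells were next split by transcripts other than the 8 genes, into gates set on the counts thinned to 3000 UMIs. A gate needed a UMI of both named genes, a UMI of Gzmc, or UMIs of at least 3 of 7 interferon-stimulated genes. Within each library the gated cells were then compared with all other cells on their full counts. Gates could overlap. All 8 genes passed the filter on low counts in every gate. Called means an adjusted p under 0.05 over all genes tested. The plot of gates by gene gives the whole set.

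**Figure D2:**
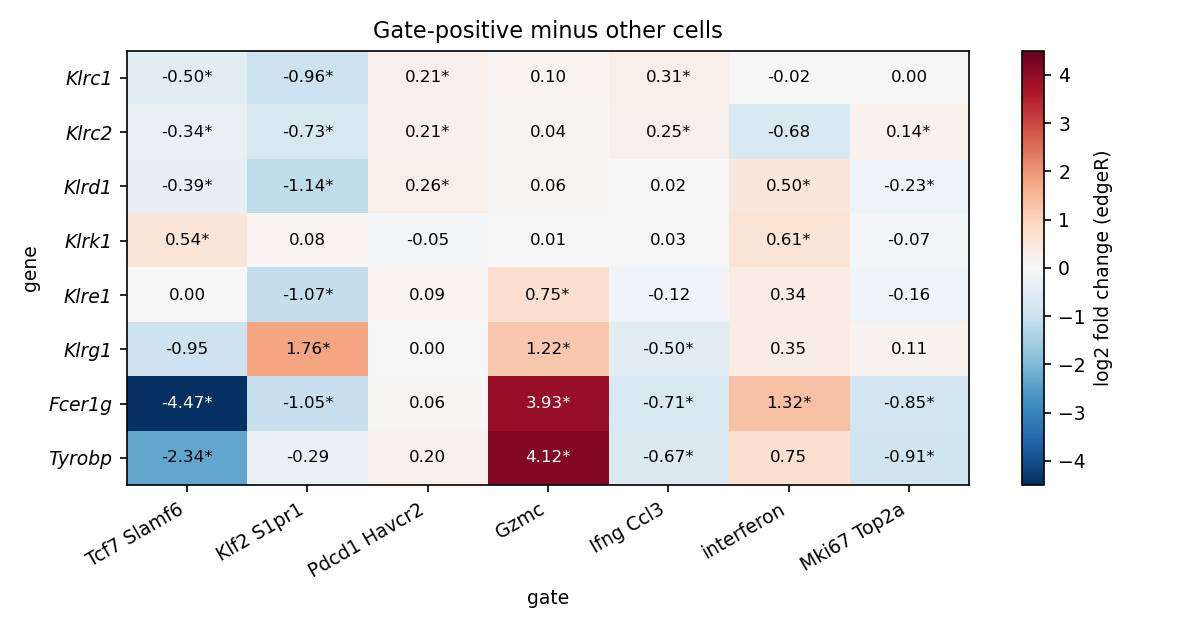
Log2 fold change of the 8 genes (rows) in the cells of 7 gates (columns) against the other cells of the same libraries, from the edgeR fit, as colour and printed value, where * marks an adjusted p under 0.05. The Gzmc gate stands out by the adaptors, with 3.93 for Fcer1g and 4.12 for Tyrobp, and the Tcf7 Slamf6 gate by -4.47 for Fcer1g.

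Tcf7, the transcription factor TCF1, and the receptor gene Slamf6 mark precursor exhausted T cells, which feed the exhausted pool. The gate held 41, 40 and 71 cells with anti-PD-1 and 229 cells of IgG. Of the 8 genes, 6 were called, 1 higher and 5 lower, against 22.1% of all 12363 genes. Klrk1 was the one that rose, and Klrd1, Klrc1, Klrc2, Fcer1g and Tyrobp were called lower, Tyrobp from very few counts. The 5 genes of the B or plasma cell list (Igkc, Ighm, Cd79a, Ms4a1 and Jchain) summed to between 64.3 and 169 CPM in the gate and to between 51.9 and 63.8 CPM outside. In the gate Ms4a1 was at 0 in all 4 libraries, Cd79a and Jchain were at 0 in all but replicate 3, and the part of the list in the results was not tested.

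Klrk1 was at 339, 239 and 341 CPM in gated cells with anti-PD-1 and 343 CPM in those of IgG, against 217, 212, 199 and 221 CPM in the other cells. It was higher in all 4 libraries with no overlap, by a log2 fold change of 0.54 ± 0.09 (adjusted p = 4.3e-07). The call was lost in 1 alternative, the stricter myeloid filter (log2 fold change 0.36, adjusted p = 0.138 by edgeR). Hcst, whose product is the adaptor of NKG2D, was also called higher in this gate, by 0.38 ± 0.09, with ranges that overlapped between libraries. It was called higher as well in the Klf2 S1pr1 and Pdcd1 Havcr2 gates below, where Klrk1 was not called.
Klrc1 was at 98.1, 60.2 and 86.6 CPM with anti-PD-1 and 79.9 CPM with IgG in the gate, against 109, 109, 126 and 108 CPM outside. All 4 gated values lay under all others, and the log2 fold change was -0.50 ± 0.12 (adjusted p = 0.00055). Klrd1 was also lower in all 4 libraries, by -0.39 ± 0.08, although its gated and other values overlapped between libraries.

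Fcer1g was close to absent in this gate. Its gated cells held 0, 0 and 0 UMIs with anti-PD-1 and 5 UMIs, or 3.44 CPM, in IgG, against 7.36, 6.30, 56.1 and 42.2 CPM in the other cells. A count of 0 allows up to 5.55, 6.22 and 4.12 CPM in the 3 anti-PD-1 gates, so that in replicates 1 and 2 the difference lies near what the gate could show, while in replicate 3 and IgG it does not. The fitted log2 fold change was -4.47 ± 0.40 (adjusted p = 1.2e-20) and depends on the prior count where libraries are at 0. Tyrobp had 2 UMIs in replicate 1, or 3.70 CPM against 1.17 CPM outside, and was thus higher there. It had 0 UMIs in replicates 2 and 3 and IgG, which allows up to 6.22, 4.12 and 2.07 CPM, against 1.40, 4.52 and 3.96 CPM outside. Its call (-2.34 ± 0.87, adjusted p = 0.0393) rests on very few counts and changed sign when the gate was set at 2000 UMIs or with any number of guides. Klrc2 was called at -0.34 ± 0.12 (adjusted p = 0.0352), a call lost in 11 of 16 alternatives (log2 fold change -0.42 to -0.05, adjusted p up to 0.908), while Klre1 (0.00 ± 0.13) and Klrg1 (-0.95 ± 0.53) were not called. Gated cells had a lower median UMI count than the others in every library, for example 11494 against 16929 in replicate 1.

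Klf2, a transcription factor of quiescent and circulating T cells, and S1pr1, a receptor for tissue egress, mark cells of a memory or recirculating kind. The gate held 49, 41 and 71 cells with anti-PD-1 and 43 cells of IgG. Of the 8 genes, 6 were called, against 20% of all 12191 genes, and Klrg1 was higher while Klrd1, Klrc1, Klrc2, Klre1 and Fcer1g were lower. The B or plasma cell list was at 78.3 to 100.3 CPM in the gate and at 51.6 to 65.1 CPM outside, with no overlap. Cd79a, Ms4a1 and Jchain were at 0 in the gate in all 4 libraries, and the part of the list was not tested.

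Klrd1 was at 342, 335 and 612 CPM in gated cells with anti-PD-1 and 465 CPM in IgG, against 742, 715, 1137 and 958 CPM in the others. Every gated value lay below every other value, at a log2 fold change of -1.14 ± 0.08 (adjusted p = 2.8e-44).
Klrc1 was at 69.8, 75 and 43.9 CPM with anti-PD-1 and 64.2 CPM with IgG, against 110, 109, 126 and 108 CPM. It too did not overlap, with -0.96 ± 0.13 (adjusted p = 8.0e-13). Klrc2 was lower by -0.73 ± 0.13 and Klre1 by -1.07 ± 0.16, each in 4 of 4 libraries with overlapping ranges. The Klrc2 call was lost in 3 alternatives (log2 fold change -0.67 to -0.41) and the Klre1 call in 2 (-1.08 to -0.42).

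Klrg1 stood at 4.10, 10.0 and 31.8 CPM in gated cells with anti-PD-1 and 28.1 CPM in IgG, against 3.45, 4.21, 5.87 and 4.72 CPM. It was higher in 4 of 4 libraries, by a log2 fold change of 1.76 ± 0.34 (adjusted p = 3.6e-06), but the gated values rest on 3, 6, 21 and 7 UMIs and replicate 1 lay within the range of the other cells. Klrk1, at 0.08 ± 0.09, was not called. Fcer1g had 0, 1, 28 and 1 UMIs in the gate, of which replicate 3 held 28, and its call by edgeR (-1.05 ± 0.27, adjusted p = 0.00082) was not made by DESeq2 (adjusted p = 0.103). Cd8a was lower in these cells as well, with 425 ± 41.5 CPM (SD, n = 4) in gated cells and 776 ± 135 CPM in the others, with no overlap, and its part in the results was not tested.

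Pdcd1, which encodes PD-1, and Havcr2, which encodes TIM-3, mark exhausted T cells. Their gate held 443, 416 and 1624 cells with anti-PD-1 and 2179 cells of IgG. Of the 8 genes, 3 were called, all higher, against 20.3% of all 12633 genes in either direction. They were the CD94 chain and both of its NKG2 partners.
Klrd1 was at 859 and 899.8 CPM in replicates 1 and 2, 1246 CPM in replicate 3 and 1071 CPM in IgG in gated cells, against 709, 676, 1095 and 930 CPM. It was higher in 4 of 4 libraries, by a log2 fold change of 0.26 ± 0.03 (adjusted p = 5.5e-07). Klrc1 was higher by 0.21 ± 0.03 (adjusted p = 8.0e-06) and Klrc2 by 0.21 ± 0.03 (adjusted p = 2.8e-05), also in 4 of 4 libraries each. For all 3 genes the ranges of the gated and the other cells overlapped. For Klrd1 and Klrc2 libraries differed by more than the gate did. Klrc1 ran from 118 to 141 CPM in the gate and from 105 to 121 CPM outside. The adaptors were not called, with Fcer1g at 0.06 and Tyrobp at 0.20, and neither were Klrk1 (-0.05), Klre1 (0.09) and Klrg1 (0.00). H2-T23, the gene of the NKG2A and NKG2C ligand, was called higher by 0.11 ± 0.02 in the same cells.

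Gzmc encodes granzyme C, a protease of the cytotoxic granules that strongly activated killer cells produce. The gate held 45, 44 and 377 cells with anti-PD-1 and 601 cells of IgG, which is 1.79%, 1.71%, 5.98% and 5.57% of cells. Of the 8 genes, 4 were called, all higher, against 10.8% of all 12534 genes. They were both adaptors, Klre1 and Klrg1, whereas the CD94, NKG2 and NKG2D chains were not called.

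Fcer1g was at 150, 208 and 356 CPM in gated cells with anti-PD-1 and 239 CPM in those of IgG, against 3.70, 2.14, 32.5 and 28.9 CPM in the others. Every gated value was above every other value, with a log2 fold change of 3.93 ± 0.16 (adjusted p = 2.6e-34). At equal depth, 17.8%, 20.5%, 34.0% and 25.3% of gated cells had an Fcer1g UMI, against 0.568%, 0.514%, 5.45% and 4.61% of the others. Replicate 3 had the highest share and replicates 1 and 2 the lowest on both sides of the gate.
Tyrobp was at 28.9, 37.9 and 33.1 CPM with anti-PD-1 and 23.3 CPM with IgG in the gate, against 0.510, 0.643, 2.28 and 2.66 CPM outside it. Here too the values did not overlap, and the log2 fold change was 4.12 ± 0.20 (adjusted p = 1.4e-29). In replicate 1 all gated UMIs of Tyrobp came from 1 cell.

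**Figure D3:**
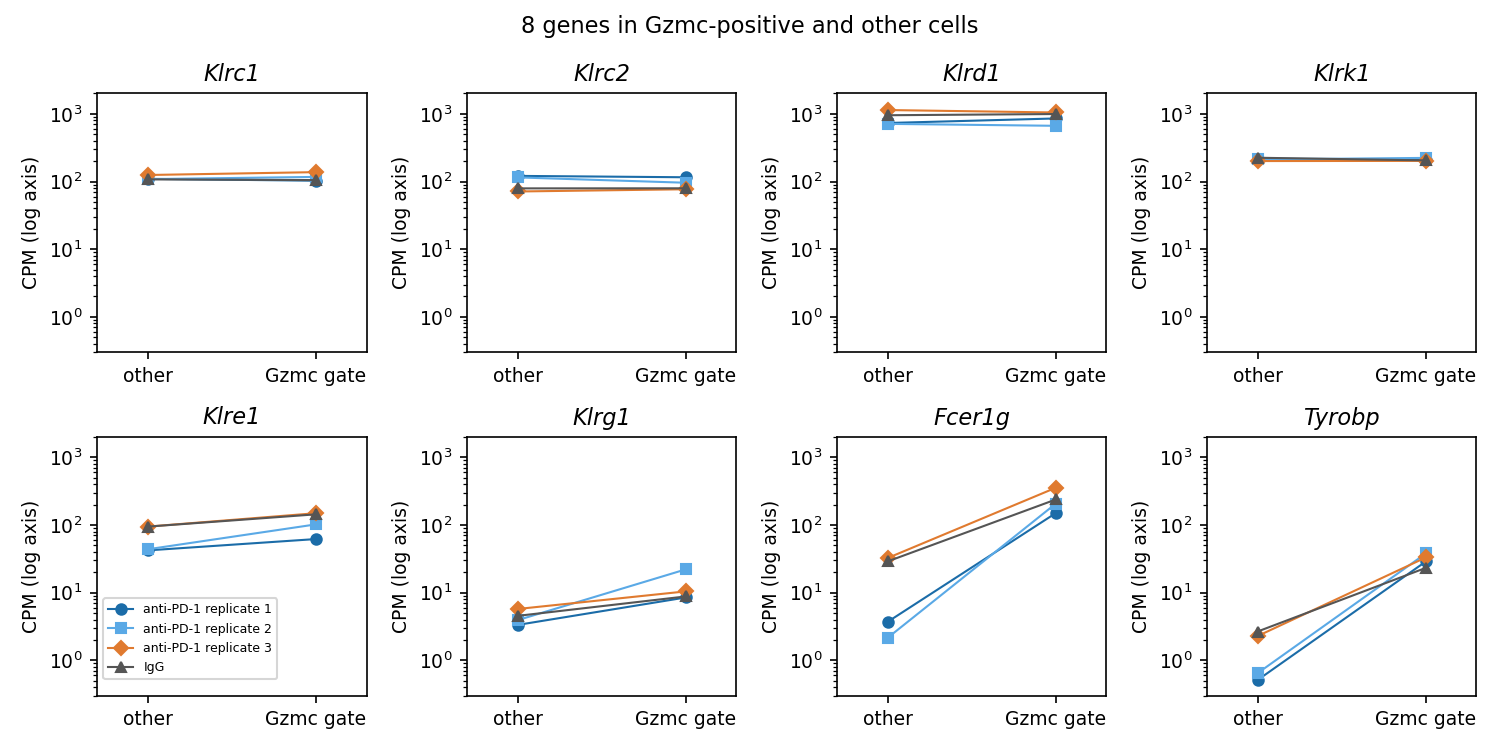
Level (CPM, log axis) in the cells with a Gzmc UMI and in the other cells of each library, in 8 panels with 1 gene each on a shared axis, where a line joins the 2 values of a library. The lines of Klre1, Klrg1, Fcer1g and Tyrobp rise in all 4 libraries, those of Klrc1, Klrc2, Klrd1 and Klrk1 stay nearly flat, and Fcer1g runs from 2.14 to 32.5 CPM in the other cells and from 150 to 356 CPM in the gated ones.

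Klre1 was at 62.0, 102 and 150 CPM in gated cells with anti-PD-1 and 144 CPM in IgG, against 42.1, 43.8, 94.7 and 94.7 CPM. It was higher in 4 of 4 libraries with overlap between libraries, by 0.75 ± 0.07 (adjusted p = 4.9e-15). Klrg1 was at 8.49, 22.1 and 10.5 CPM with anti-PD-1 and 8.80 CPM with IgG, against 3.34, 3.92, 5.73 and 4.54 CPM, with no overlap and a log2 fold change of 1.22 ± 0.18 (adjusted p = 1.3e-07). Klrc1 (0.10 ± 0.06), Klrc2 (0.04), Klrd1 (0.06) and Klrk1 (0.01) had fold changes close to none.

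The gated cells, which contributed 2.44%, 1.99%, 7.15% and 5.97% of all UMIs, held 50.4%, 66.3% and 45.8% of the Fcer1g UMIs with anti-PD-1 and 34.4% in IgG. For Tyrobp these shares were 58.6%, 54.5%, 52.8% and 35.7%. Gated cells had the higher median UMI count, at 24826, 20564 and 14703 against 16742, 16225 and 11926 with anti-PD-1 and 6941 against 6481 with IgG, and doublets were not called. The 4 defining myeloid genes C1qc, Csf1r, Spi1 and Adgre1 summed to between 0 and 0.643 CPM in the gate and to between 0.0850 and 0.557 CPM outside it, and none of them passed the filter on low counts for a test. The 16 myeloid genes were at 265 to 378 CPM in the gate and at 227 to 311 CPM outside, higher in 4 of 4 libraries, and the B or plasma cell list was at 29.7 to 39.0 CPM and 52.2 to 67.0 CPM. The part of these lists was not tested. The CD8 T cell list was at 8006 to 8491 CPM in the gate and at 8584 to 9381 CPM outside, and every gated cell had a UMI of it.

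Listed partner genes were called in both directions in this gate, beside 10.8% of all genes. Of 14 adaptor and signalling genes, 13 were tested and 5 were called. Higher were Sh2d1b1, which encodes the SAP-related adaptor EAT-2 (4.88 ± 0.42), and Lat2, which encodes the transmembrane adaptor NTAL (1.10 ± 0.08), while Sh2d1a, which encodes SAP, Ptpn11 and Lat were lower, at -0.55, -0.34 and -0.19. Of 28 other NK receptor genes, 21 were tested, 7 were higher and 4 were lower. Among the higher were Fcgr3, an Fc receptor that needs the Fcer1g product at the surface (2.87 ± 0.40), Klra17 (2.50 ± 0.27), Klra5 (1.82 ± 0.10) and Cd244a, the gene of 2B4 (1.33 ± 0.09). Lower were Crtam (-1.06 ± 0.07), Cd226, which encodes DNAM-1 (-0.56 ± 0.06), Cd160 (-0.24 ± 0.04) and Klra1 (-1.57 ± 0.33). Of 8 listed transcription factors, 7 were tested, and Id2 (0.53 ± 0.05) and Nfil3 (0.42 ± 0.09) were higher and Tox (-1.21 ± 0.07) and Zeb2 (-0.29 ± 0.08) lower. The median log2 fold change was 0.23 over the tested receptors of the list and -0.03 over the adaptors, beside -0.01 over all genes.

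Ifng and Ccl3, a cytokine and a chemokine gene, mark cells in the course of effector function. Their gate held 557, 611 and 1335 cells with anti-PD-1 and 2123 cells of IgG. Of the 8 genes, 5 were called, 2 higher and 3 lower, against 30.6% of all 12388 genes. Both NKG2 genes of the Klrc family were higher, and the adaptors and Klrg1 were lower. The B or plasma cell list was at 40.8 to 48.4 CPM in the gate and at 55.8 to 69.9 CPM outside, with no overlap, and its part was not tested.
Klrc1 was at 123, 127 and 142 CPM in gated cells with anti-PD-1 and 122 CPM in IgG, against 105, 102, 121 and 104 CPM. The values did not overlap, by a narrow margin, and the log2 fold change was 0.31 ± 0.03 (adjusted p = 2.6e-06). Klrc2 was higher by 0.25 ± 0.03 (adjusted p = 1.0e-04) in 4 of 4 libraries. Fcer1g was at 3.1, 4.69 and 42.9 CPM with anti-PD-1 and 21.9 CPM with IgG in the gate, against 8.60, 6.77, 59.2 and 46.5 CPM. It was lower in 4 of 4 libraries, by -0.71 ± 0.10 (adjusted p = 0.00012), as were Tyrobp (-0.67 ± 0.16) and Klrg1 (-0.50 ± 0.13). The Tyrobp call was lost in 5 alternatives and its direction turned in 1 more. The Klrg1 call was lost in 5 alternatives. Klrd1, Klrk1 and Klre1 were not called. Without replicate 3, 3 of the 8 genes were called. Of the 4 defining myeloid genes, Spi1 was called higher in this gate (1.46 ± 0.37, adjusted p = 0.0079) and the others had too few counts to be tested, with a summed level of 0.0861 to 1.1 CPM in the gate and 0.0819 to 0.428 CPM outside, and their part in the results was not tested.

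Mki67 and Top2a mark dividing cells. Their gate held 413, 412 and 940 cells with anti-PD-1 and 1921 cells of IgG, and 4 of the 8 genes were called, against 44.6% of all 12483 genes, a share near that background. Klrc2 was higher by 0.14 ± 0.04 (adjusted p = 0.0065), and Klrd1 (-0.23 ± 0.04), Fcer1g (-0.85 ± 0.11) and Tyrobp (-0.91 ± 0.18) were lower. The Klrc2 call was lost in 4 alternatives, among them thinned counts (log2 fold change 0.099 to 0.152, adjusted p up to 0.73).
Fcer1g was at 5.06, 1.38 and 32.2 CPM in dividing cells with anti-PD-1 and 29.9 CPM in those of IgG, against 7.87, 7.56, 61.5 and 44.9 CPM. It was lower in 4 of 4 libraries, with overlap between libraries. Dividing cells had the higher median UMI count in each library, for example 8962 against 6137 in IgG.

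The interferon gate was the smallest, with 18 cells each in replicate 3 and IgG and too few in replicates 1 and 2 to use. Fcer1g (1.32 ± 0.32), Klrk1 (0.61 ± 0.18) and Klrd1 (0.50 ± 0.13) were called higher in it, 3 of the 8 genes against 2.51% of all 12290. For Klrk1, gated cells had 309 CPM in replicate 3 and 371 CPM in IgG, against 200 and 223 CPM in the other cells. Fcer1g was at 163 and 76.3 CPM against 55.4 and 41.4 CPM, from 29 and 7 UMIs, and its direction turned when gates were set at 5000 UMIs or dividing cells were left out. Klrd1 was at 1670 and 1406 CPM against 1132 and 956 CPM, and it turned, to values near 0, at 2000 UMIs and with any number of guides. The call of Klrk1 was lost in 8 of 11 alternatives (log2 fold change 0.36 to 0.70, adjusted p up to 0.98). A list of 16 myeloid genes was at 337 and 327 CPM in the gated cells of replicate 3 and IgG, against 297 and 315 CPM in the others, the 4 defining ones were at 0, and the part of the list in these calls was not tested.

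Outside the Gzmc gate the listed partners were called as follows. Of the 14 adaptor and signalling genes, 2 were higher and 3 lower of 12 tested in the Tcf7 Slamf6 gate, 3 and 3 of 12 in the Klf2 S1pr1 gate, 6 and 1 of 13 in the Pdcd1 Havcr2 gate, 5 and 1 of 13 in the Ifng Ccl3 gate and 0 and 6 of 13 in the Mki67 Top2a gate, and none of 13 was called in the interferon gate. The shares called over all genes in the first 5 of these gates were 22.1%, 20%, 20.3%, 30.6% and 44.6%, and 6 of 13 is near the last of them. In the interferon gate 2.51% of all genes were called. Lat2 was lower by -1.93 ± 0.22 in the Tcf7 Slamf6 gate and by -1.68 ± 0.24 in the Klf2 S1pr1 gate. Of the 28 other receptors, 2 were higher and 5 lower of 21 tested in the Tcf7 Slamf6 gate, 1 and 9 of 18 in the Klf2 S1pr1 gate, 3 and 1 of 21 in the Pdcd1 Havcr2 gate, 3 and 5 of 22 in the Ifng Ccl3 gate, 0 and 7 of 20 in the Mki67 Top2a gate and 0 and 1 of 22 in the interferon gate. Klra5, a Ly49 family gene, was lower by -2.82 ± 0.20 in the Tcf7 Slamf6 gate and by -3.56 ± 0.25 in the Klf2 S1pr1 gate. Gates share most of the cells they are compared with, so that their values are given side by side only. Syk, a kinase that the adaptors recruit, was at 0.0123 to 0.0415 CPM in the 4 libraries, whereas Zap70, the T cell kinase of the same family, was at 153 to 159 CPM. Klri1, a gene of a Klre1 partner chain, was at 0 to 0.0246 CPM, and the other, Klri2, at 1.80 to 4.94 CPM.

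Coexpression within single cells was described at 3000 UMIs as an odds ratio, the odds of detecting one gene in cells with the other divided by the odds in cells without it, taken per library and given as the geometric mean and range of the 4 libraries. Points share depth and library, so no p was computed. Of the 28 pairs, the adaptors had the highest value. Fcer1g and Tyrobp reached 23.5 (8.61 to 116), from 57 cells with both, of which 25 were in replicate 3 and 30 in IgG. In replicate 3, 5.54% of cells with Fcer1g had Tyrobp, against 0.615% of cells without it, and in IgG the shares were 4.82% and 0.590%. In replicates 1 and 2 the ratio rests on 1 cell each.

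Among the lectin-like receptors, Klrd1 and Klre1 had the highest value, at 3.0 (2.47 to 4.29), followed by Klrc1 and Klrc2 at 1.87 (1.65 to 2.18), Klrd1 and Klrk1 at 1.77 (1.66 to 2.01) and Klrk1 and Klre1 at 1.67 (1.57 to 1.90). The heterodimer partners Klrd1 and Klrc1 reached 1.40 (1.12 to 1.91) and Klrd1 and Klrc2 reached 1.28 (1.06 to 1.54), beside 1.54, 1.44 and 0.98 for Klrd1 with the T cell genes Cd8a, Cd3e and Thy1. The value of Klrc1 with Klrc2 may include reads that the copies share. Klre1 gave 2.37 (1.96 to 3.22) with Fcer1g and 2.89 (1.91 to 8.74) with Tyrobp. Only 2 and 6 thinned cells of replicates 1 and 2 had Tyrobp, so that its ratios there depend on the 0.5 added to each count. The Pearson r of Klre1 with Tyrobp ran from -0.0086 to 0.051 within libraries. Klrg1 with Fcer1g gave 4.23 (1.55 to 12.7) from 35 cells. Klrc1 with Tyrobp was under 1 in all 4 libraries, at 0.789 (0.577 to 0.904), but 0 of 2 and 1 of 6 Tyrobp cells had both genes in replicates 1 and 2, so that these ratios are set by the 0.5 added to each count.

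**Figure D4:**
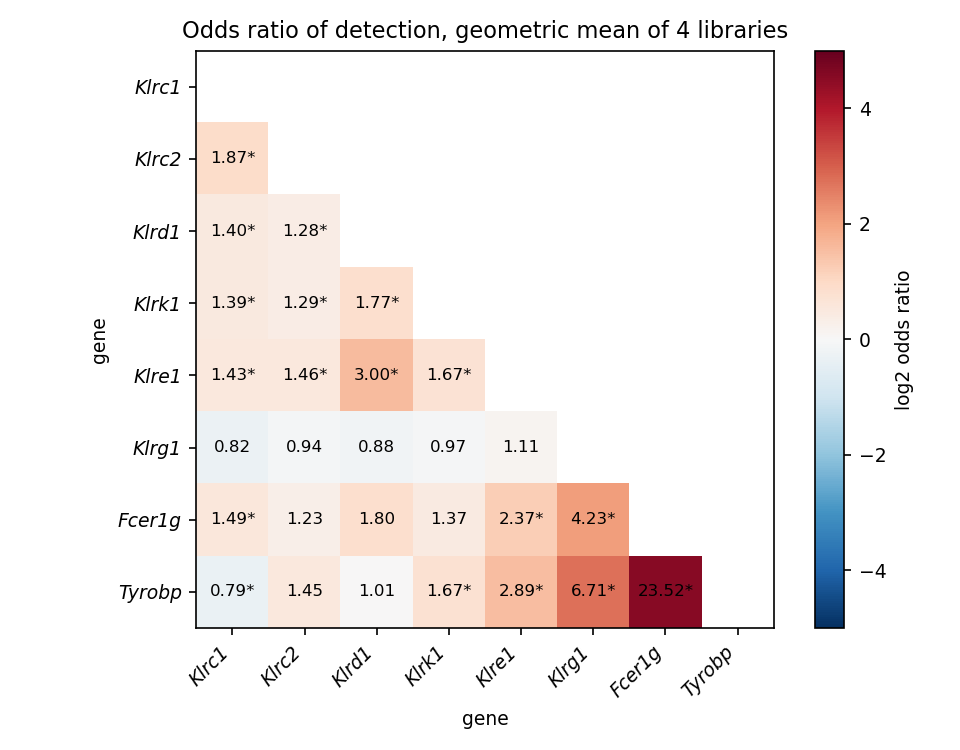
Odds ratio of detection for the 28 pairs of the 8 genes, printed as the geometric mean of 4 libraries at 3000 UMIs per cell and coloured on a log2 scale, where * marks a ratio on the same side of 1 in all 4 libraries. The pair Fcer1g and Tyrobp stands at 23.5 and Klrd1 and Klre1 at 3.0, and 5 of the 7 pairs with Klrg1 lie between 0.820 and 1.11.

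The genes whose counts followed a member most closely were taken as the 3 with the highest mean Pearson r within the 4 libraries, among 3084 genes other than the 8 that were detected in at least 10% of thinned cells. For Fcer1g they were Ifitm1 (r = 0.28, range 0.22 to 0.33), Gzma (0.20) and Lgals3 (0.12), and for Tyrobp the same 3 genes at 0.08, 0.06 and 0.05. Gzmc, whose share of cells is under that limit and which is named because it set a gate, had 0.38 (0.27 to 0.55) with Fcer1g and 0.16 with Tyrobp. Other genes under the limit, named after their values were seen, also exceeded most of these, with Gzmd at 0.32, Gzmf at 0.29, Gzme at 0.23 and Spp1 at 0.22 for Fcer1g, and Gzmf at 0.19 and Gzmd at 0.15 for Tyrobp. For Klrd1 they were Tmsb4x (0.30), Plac8 (0.30) and AW112010 (0.28), and for Klre1 Tmsb4x, Plac8 and Rps15a at 0.10 to 0.11. For Klrc1, Klrc2, Klrk1 and Klrg1 none of the 3084 genes exceeded 0.10, and the first were Prf1, the perforin gene, for Klrc1, Malat1 for Klrc2, Ms4a4b for Klrk1 and Ly6c2 for Klrg1. Among the 8 genes themselves r was higher than this for several pairs, at 0.17 for Klrd1 and Klre1, 0.14 for Fcer1g and Tyrobp, 0.13 for Klrc1 and Klrc2 and 0.13 for Klrd1 and Klrk1.

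Fcer1g was carried by a minority of cells at high counts. It was detected in 55, 52 and 698 cells with anti-PD-1 and in 958 cells of IgG, without thinning. Cells with at least 10 Fcer1g UMIs numbered 12, 8, 159 and 75, and cells with at least 3 UMIs held 89.5%, 88.6%, 92.6% and 79.5% of its UMIs. The top cell held 15.7% and 16.8% of them in replicates 1 and 2, but 1.43% and 1.18% in replicate 3 and IgG.

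**Figure D5:**
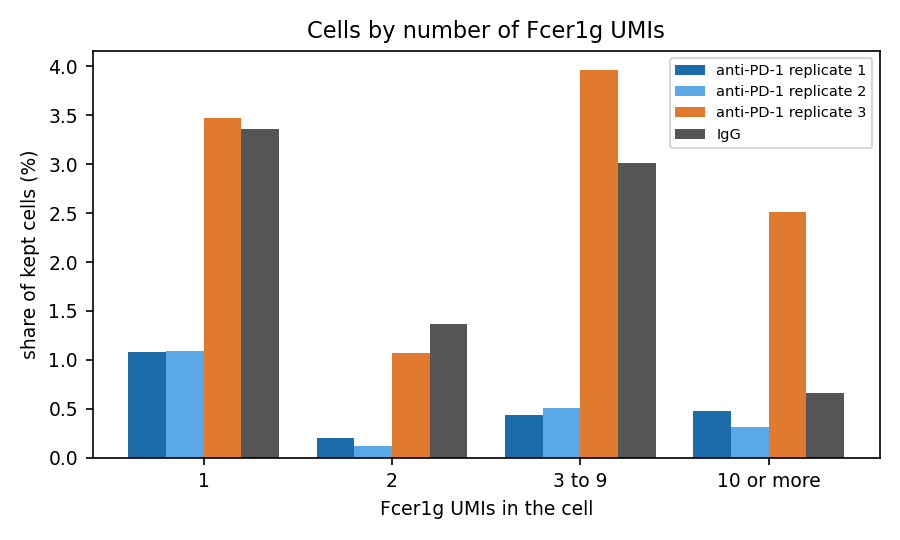
Share of kept cells (%) with 1, 2, 3 to 9 and 10 or more Fcer1g UMIs, without thinning, with 1 bar per library. Single-UMI cells number 27, 28, 220 and 383 with anti-PD-1 and IgG, and cells with 10 or more UMIs number 12, 8, 159 and 75.

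Cells with Fcer1g carried T cell transcripts. Every Fcer1g-positive cell had a UMI of the CD8 T cell list, which summed to between 8616 and 9422 CPM. The 4 defining myeloid genes summed to 0, 0, 0.779 and 1.10 CPM in the Fcer1g-positive cells of the 4 libraries, against 0.0829, 0.273, 0.574 and 0.528 CPM in all kept cells, and to at most 0.316 CPM in cells with at least 3 Fcer1g UMIs. The wider list of 16 myeloid genes was at 235 to 377 CPM in Fcer1g-positive cells and at 227 to 314 CPM in all kept cells, and was higher in 3 of 4 libraries. Cst3, which makes up most of that list, was higher in Fcer1g-positive cells than in the others in 4 of 4 libraries, for example at 269 against 209 CPM in IgG, whereas Ctss was lower in 4 of 4, at 37.8 against 55.6 CPM in IgG. The list of 5 NK or innate genes, nearly all of it Trdc, was at 108 to 221 CPM against 94.1 to 147 CPM, and was higher in 4 of 4 libraries. The part of these lists in the Fcer1g results was not tested. Ncr1, the NK receptor gene of NKp46, had no UMI in the kept cells of replicates 1, 2 and 3 and 0.0492 CPM in IgG, and Klrb1c, the NK1.1 gene, was at 0.042 to 0.234 CPM. For Tyrobp the myeloid genes were closer, at up to 3.66 CPM in Tyrobp-positive cells. The list of 16 myeloid genes was at 268, 910 and 279 CPM in the Tyrobp-positive cells with anti-PD-1 and 596 CPM in those of IgG, against 227, 251, 297 and 314 CPM in all kept cells, higher in all but replicate 3, and its part in the Tyrobp results was not tested. In the 234 cells that the myeloid rule left out, Tyrobp was at 8.82, 0, 32.8 and 22.6 CPM against 1.20 to 4.48 CPM in the kept cells, whereas Fcer1g was at 14.1, 5.08, 47.8 and 51.9 CPM, from 8 UMIs in replicate 1, against kept levels of 7.27, 6.24, 55.5 and 41.6 CPM. Only 3 barcodes lacked T cell transcripts and held myeloid ones, so that the level free RNA could reach was not measurable.

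Because each cell carried a guide, the spread of the adaptors over guides was counted. Among guides with at least 20 cells, Fcer1g was detected at 3000 UMIs under 132 of 148 guides in replicate 3 and 216 of 245 guides in IgG, nontargeting guides included, and the top guide held 1.55% and 1.45% of the Fcer1g-positive cells. In replicates 1 and 2 it was detected under 3 of 29 and 4 of 21 such guides. Each of these libraries had 22 positive cells over all guides, those with fewer than 20 cells included. Tyrobp was detected under 0 of 29, 1 of 21 and 37 of 148 guides with anti-PD-1 and under 77 of 245 in IgG. For Klre1 the guides with a positive cell were 26 of 29, 19 of 21 and 147 of 148 with anti-PD-1 and 244 of 245 in IgG.

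To ask whether a knockout moved any of the 8 genes, 70 targets with at least 10 cells in each anti-PD-1 library were compared with sgNT cells. Of 560 pairs of a target and a gene, 3 were called, against 0.0244% of 582050 pairs over all genes.
Klrk1 was lower with guides against Setd1b, which encodes a histone H3 lysine methyltransferase. Its level was 69.5, 95.3 and 72.7 CPM in 18, 13 and 45 Setd1b cells of the anti-PD-1 replicates, against 224, 190 and 197 CPM in sgNT cells. The groups did not overlap, and the log2 fold change was -1.40 ± 0.25 (adjusted p = 1.7e-04). In IgG, which was not part of the fit, Klrk1 was at 132 CPM in 69 Setd1b cells against 234 CPM. Klrc2 was also lower with these guides, at 47.3, 41.5 and 38.4 CPM against 121, 108 and 72.0 CPM, with no overlap and a log2 fold change of -1.16 ± 0.26 (adjusted p = 0.0142), and at 57.4 against 84.0 CPM in IgG. Klrd1 and Klrc1 were not called but were lower with these guides as well, without overlap in the anti-PD-1 libraries. Klrd1 was at 517, 253 and 602 CPM against 705, 735 and 1110 CPM. Klrc1 was at 75.1, 87.1 and 54.9 CPM against 105, 106 and 130 CPM. Without replicate 3 Klrk1 was no longer called (adjusted p = 0.0581) at a log2 fold change of -1.34. Klrc2 was not called without replicate 1, 2 or 3 (adjusted p = 0.278, 0.288 and 0.0710), at -1.08, -1.11 and -1.34. Setd1b transcripts themselves were at 22.3, 24.9 and 23.3 CPM against 30.3, 24.8 and 21.4 CPM, which does not check the knockout, since an edit need not lower the RNA that a 3′ assay counts.
The third call, Tyrobp with guides against the sialyltransferase gene St3gal4 (3.80 ± 0.60, adjusted p = 1.9e-05), came from 1 cell. In replicate 1, 34 of 34 Tyrobp UMIs of the 24 St3gal4 cells were in that cell, and the 116 St3gal4 cells of IgG had 0. Without replicate 1 the log2 fold change was 1.05 (adjusted p = 1), and neither DESeq2 nor the fit with all 4 libraries made the call (adjusted p = 0.99973 and 0.116).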

How the data were processed

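The deposited values are raw counts of UMIs for each gene in each cell barcode, made by the authors from 10x Genomics Chromium 3′ v3.1 libraries with Cell Ranger 3.1.0 against mm10, together with guide calls per cell. The sources used here do not give the annotation release. The 8 genes, the gates and the gene lists were chosen with earlier results of these data known. Cells had exactly 1 called guide, log10 UMIs no further than 3 median absolute deviations from the median of their library, at most 10% mitochondrial UMIs and no UMI of Lyz2, C1qa or C1qb. Total gene UMIs per library were 142945121 to 155974184. CPM divides summed counts by the UMIs of the same cells, and ± is the SD over libraries for means and the SE of the fit for log2 fold changes. A count of 0 was bounded by 3 counts per library. Of the listed defining myeloid genes, 1 is not reported here.

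Counts were summed per library, or per library and side of a gate (at least 10 gated cells), and tested with edgeR 4.0.16 by quasi-likelihood with filterByExpr, TMM and Benjamini-Hochberg adjustment over all genes tested at 0.05. Gate fits had the library as a block. The treatment fit took the spread of the 3 anti-PD-1 libraries for the lone IgG library as well. Knockouts were fitted together on 1 sum for each target in each anti-PD-1 library, with a common dispersion estimated on a subset of genes and library effects held as offsets. Alternatives were DESeq2 1.42.0, relative log expression, no filter, other myeloid, guide and depth limits, and each library left out in turn. The scripts were tested on simulated counts. The named genes were the 8 genes, the pathway lists and, for each of the 8, the 3 genes of highest mean r. Positions came from the GENCODE annotation of GRCm38 and sequences from RefSeq (GRCm38.p6).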

Additional observations from a re-analysis of the deposited data

How the results depend on the processing

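The Gzmc gate depended least on the processing. It kept 3 to 4 called genes under 17 alternatives, and in all 17 Fcer1g (log2 fold change 3.26 to 4.63) and Tyrobp (3.42 to 4.82) were called higher. Elsewhere the number of the 8 genes called moved. For the treatment, 1 gene was called with the library pair as a term, and leaving out a library gave 0 to 5, with 5 without replicate 3. Without a library block in the fit, 2 genes were called in the Tcf7 Slamf6 gate, 3 in the Klf2 S1pr1 gate and 0 in each of the Pdcd1 Havcr2, Ifng Ccl3, interferon and Mki67 Top2a gates. In the Tcf7 Slamf6 gate 3 were called with a stricter myeloid filter and 3 with gates set at 2000 UMIs, in the Pdcd1 Havcr2 gate 6 with any number of guides, and in the Ifng Ccl3 gate 3 in nontargeting cells. In the interferon gate 1 was called by DESeq2, 1 with any number of guides, 1 at 2000 UMIs and, in the opposite direction, 1 at 5000 UMIs, and 0 in thinned counts or without dividing cells. Leaving out 1 library gave 4 to 6 genes in the Tcf7 Slamf6 gate, 6 to 7 in Klf2 S1pr1, 3 to 4 in Pdcd1 Havcr2, 3 to 6 in Ifng Ccl3, 4 to 5 in Mki67 Top2a and 1 to 2 knockout calls. Knockout calls came to 36 without a filter on low counts and to 0 with at least 20 cells in each library, a limit that left both Setd1b and St3gal4 out of the test. The coexpression pairs above 1 in every library numbered 17 to 20 when 1 library was left out.

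The direction turned for Tyrobp in the Tcf7 Slamf6 gate, to 0.34 with any number of guides and 0.55 at 2000 UMIs, and in the Ifng Ccl3 gate, to 0.29 in nontargeting cells. In the interferon gate it turned for Fcer1g, to -2.38 at 5000 UMIs and -0.65 without dividing cells, and for Klrd1, to -0.12 with any number of guides and -0.014 at 2000 UMIs. The cause was not tested. No paired analysis was possible because no label pairs an anti-PD-1 library with the IgG library. Nontargeting cells alone could not be fitted for the Klf2 S1pr1, interferon and Tcf7 Slamf6 gates, nor a stricter myeloid filter or a left-out library for the interferon gate, nor the treatment without IgG. Depth limits Klrg1 and Tyrobp most, with few UMIs in any small gate, and doublets and free RNA were not modelled.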
